A study of Mus musculus with 8 samples.

Results

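Mesenchymal progenitors purified from mouse hindlimb muscle 5 days after notexin injury were compared with the same population from resting muscle by RNA sequencing, 1 library against 1 library. A row of the deposited expression table entered the comparison when its locus spanned at least 200 bp and it reached 5 FPKM (fragments scaled by transcript length and by library size) in the higher of these libraries, which left 8382 of 23846 rows. The difference of a gene is its log2(FPKM + 1) at day 5 minus that in the quiescent library. A gene was counted as higher or lower when this difference reached 1 in size, a 2-fold change on that scale, and as 4-fold changed when it reached 2. The comparison addresses the working description of day 5 as a matrix-producing state of these cells.

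The study holds 8 libraries, 1 from quiescent cells and 1 each from days 1, 2, 3, 4, 5, 7 and 10 after injury, and the other 6 are used here for context only. All mice were C57BL/6J of the genotype Hic1CreERT2/CreERT2;Rosa26LSLtdTomato/+, so both copies of Hic1 carry the inducible Cre in the quiescent group as well. At 8 weeks of age they received 2.5 mg of tamoxifen in 100 uL of sunflower oil each day for 5 days, followed by 10 days without treatment. The quiescent group was not injured. The other groups were injured with notexin, a phospholipase of snake venom that kills muscle fibres. Cells were purified by flow cytometry from whole hindlimb muscle, and tdTomato marks cells with an active Hic1 locus at the time of tamoxifen, together with their descendants. How many mice stand behind a library is not given in the sources used here. With 1 library on each side no p-value can be given, and the spread between animals, sorts and library preparations is not known. In such bulk samples, a smaller share of expressing cells and less RNA per cell cannot be told apart.

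Extracellular matrix is built largely by fibroblast-like cells of this kind. Fibrillar collagen is translated into the endoplasmic reticulum, hydroxylated and folded there with dedicated chaperones, exported, trimmed outside the cell and then cross-linked by lysyl oxidases. Around the fibrils lie proteoglycans, elastic fibres and matricellular proteins, which tune cell attachment more than they bear load, and proteases with their inhibitors set how long the matrix lasts. In injured muscle, progenitors of this type make a transient matrix and secrete factors that act on the regenerating fibres.

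Day 5 differed from quiescent by at least 2-fold for 12.8% of the compared genes. Of the 8382, 693 were higher (8.27%) and 376 were lower (4.49%), while 7313 lay within 2-fold. Changes of 4-fold or more were counted for 147 higher genes (1.75%) and 20 lower genes (0.239%). Of the higher genes, 238 reached 5 FPKM only at day 5, and of the lower genes, 145 reached it only in the quiescent library; a gene that entered through 1 library alone could only differ in that direction. The median difference over all compared genes was 0.07 on FPKM as deposited, which is the value to read list medians on that scale against. The split between higher and lower depended on scaling, because the column totals differed, being 463650 FPKM in quiescent cells and 603122 on day 5. Median-ratio scaling shifted the median difference by -0.13 and gave 541 higher and 543 lower genes, and rescaling to a common sum shifted it by -0.36 and gave 356 and 1002. The median over the genes compared was then -0.07 and -0.31, and rescaled list medians are to be read against these values. The thresholds separate near neighbours. Hmox1 just passed as higher at 1.003 and Lsmd1 just missed at 0.9995, Ptgs2 just passed as lower at -1.002 and Kdm3b just missed at -0.9998. Rcan3 at 5.001 FPKM entered the comparison, and Tsen54 at 4.9996 FPKM did not. On the span limit, Rmrp at 275 bp entered and Rn4.5s at 174 bp did not.

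**Figure D1:**
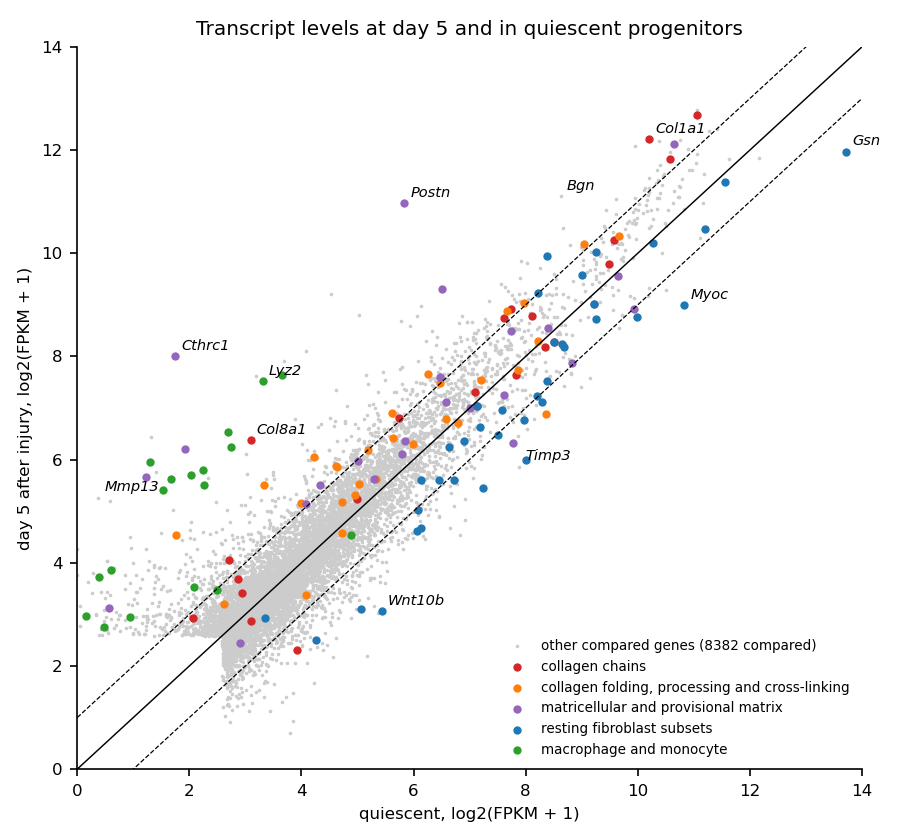
Each point is 1 of the 8382 compared genes, with log2(FPKM + 1) in the quiescent library on the horizontal axis and at day 5 on the vertical axis; the solid line marks equality, the dashed lines a difference of 1, and colours mark 5 gene lists. Postn, Cthrc1 and the macrophage and monocyte markers lie far above the upper dashed line, while resting fibroblast genes such as Gsn, Myoc and Wnt10b lie below the lower one.

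Depth was estimated from the low values at 18.7 M (mega) fragments for the quiescent library and 14 M for day 5. A 2 kb gene at 5 FPKM then rests on 173 fragments in the quiescent library and on 129.5 at day 5, a counting error of 0.11 and 0.13 on the log2 scale. The cells carried the defining genes of their type in both libraries. Hic1 stood at 52.2 FPKM in the quiescent library and 42.6 at day 5, Pdgfra at 118 and 77.04, and Ly6a, which encodes the surface antigen Sca-1, at 953 and 1548. Of 24 compared genes on a progenitor identity list, 21 lay within 2-fold and none was higher. The lower ones were the transcription factors Osr2 (-1.11), Tbx5 (-1.43) and Gli1 (-1.66). Tbx5 and Gli1 reached 5 FPKM only in the quiescent library, so they could only be lower. After rescaling to a common sum, 6 genes of the list were lower.

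Markers of blood and muscle cells moved as well, and their values belong beside every list below. Of 25 macrophage and monocyte markers in the table, 19 were higher and none was lower with no expression minimum applied. The minimum was reached by 18 of them, 13 of these only at day 5, so the 16 higher and the median of 3.42 among the 18 are partly fixed by the selection. The total of the whole list was 88.1 FPKM in quiescent cells and 245, 346, 1184, 255, 948, 184 and 195 on days 1, 2, 3, 4, 5, 7 and 10. It was thus highest on day 3. The leukocyte gene Ptprc went from 0.156 to 1.71 FPKM, whereas the lysozyme gene Lyz2 went from 8.89 to 182. Neutrophil markers summed to 47.4 FPKM at rest and 94.9 at day 5, muscle fibre markers to 162 and 315, and red cell markers to 208 and 301. Lymphocyte markers summed to 0.643 and 3.77 FPKM, none of them passed the expression minimum, and Cd3e was at the floor of 0.001 in both libraries. Endothelial markers summed to 98.0 and 54.2 FPKM, with Pecam1 at 1.82 and 1.93. Tek, an angiopoietin receptor, accounted for the difference, at 68.9 and 24.4 FPKM, and the other 13 endothelial markers summed to 29.1 and 29.8 FPKM. The part of such cells in the differences described here was not tested, and leaving out all 58 compared markers gave 666 higher and 371 lower genes.

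**Figure D2:**
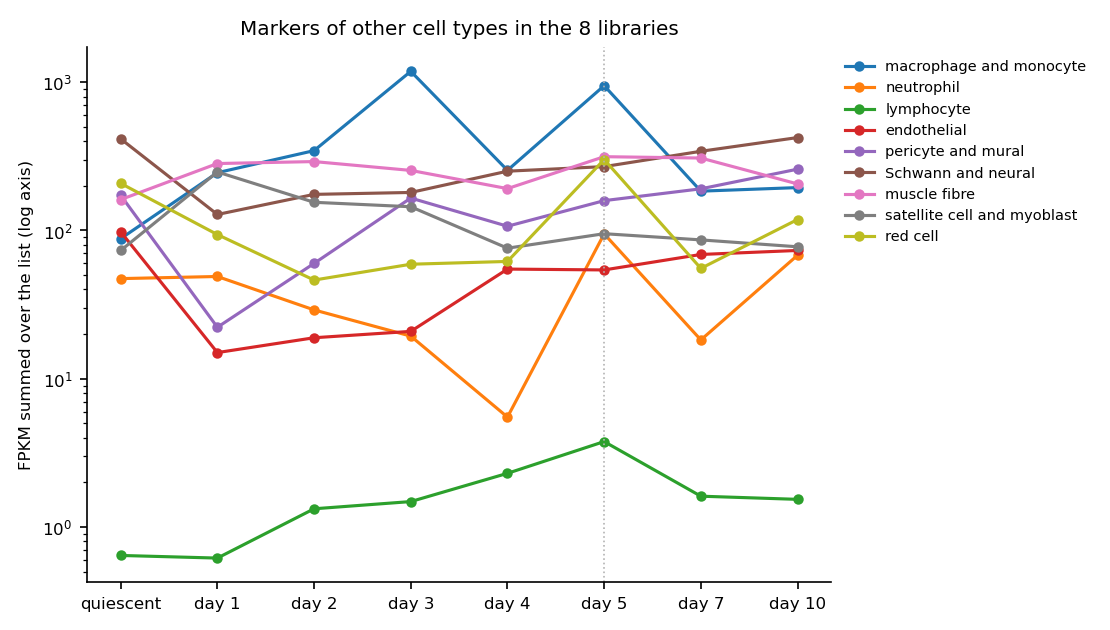
FPKM summed over each list of markers of other cell types (log axis) in the 8 libraries, 1 point per library, with the dotted line at day 5. Macrophage and monocyte markers reach 948 at day 5 against 255 at day 4 and 184 at day 7, and are highest on day 3 at 1184. Red cell and neutrophil markers are also higher at day 5 than on day 4 or day 7.

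**Figure D3:**
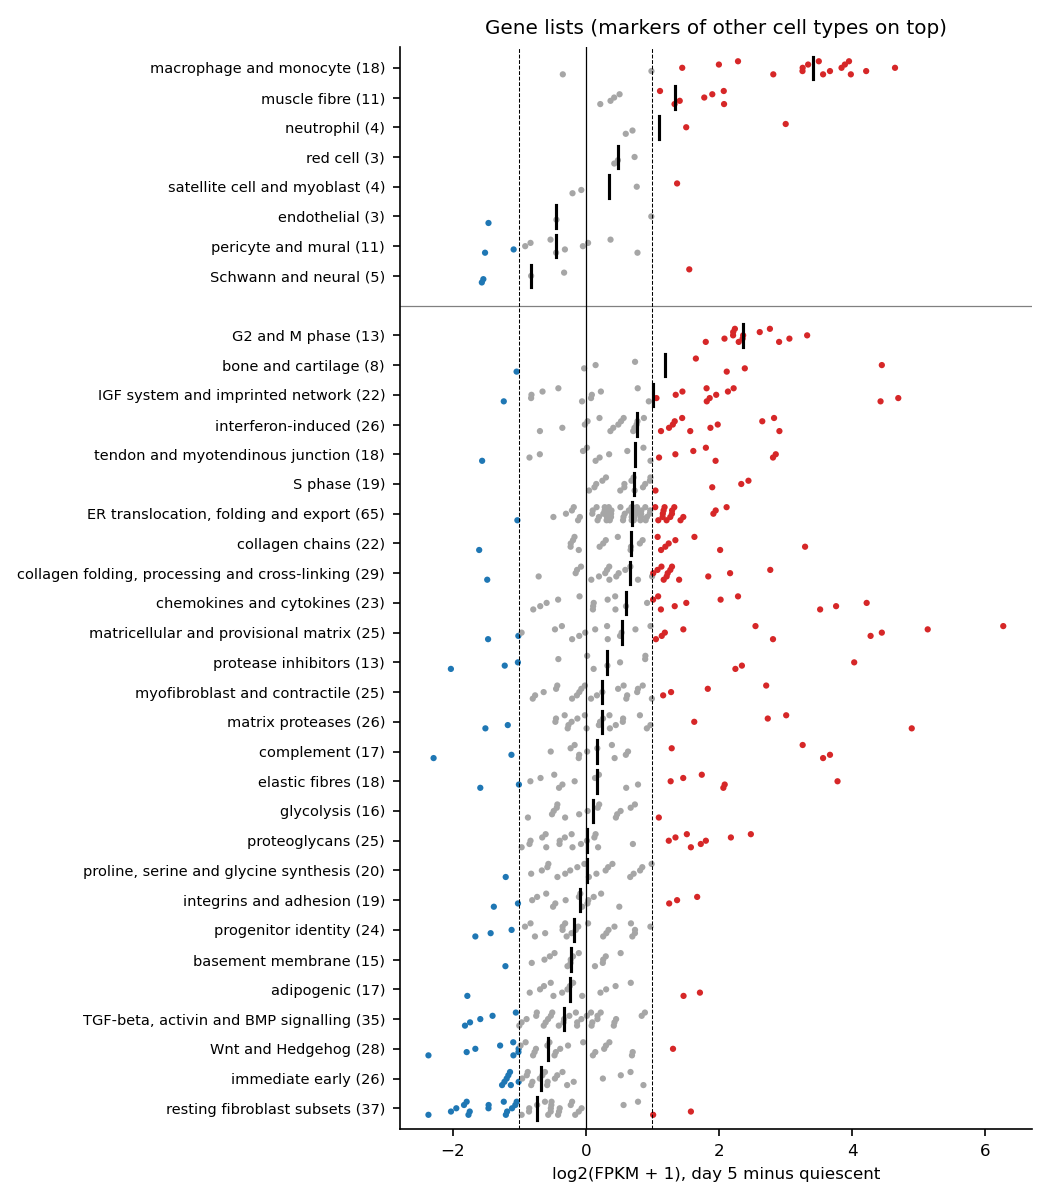
Difference of log2(FPKM + 1), day 5 minus quiescent, for each compared member of the lists (number compared in brackets); red points are higher, blue lower, grey within 2-fold, dashed lines mark 1 and -1, and the black bar is the list median. The macrophage and monocyte markers have the highest median (3.42), followed by G2 and M phase genes (2.35), and 13 members of each of these lists reached the minimum only at day 5. The resting fibroblast genes have the lowest median among the non-marker lists (-0.73).

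Genes of the matrix as a whole were both higher and lower more often than all compared genes. Collagens, their processing enzymes, matricellular proteins, proteoglycans, elastic fibre and basement membrane genes, proteases and inhibitors together gave 168 compared genes, of which 51 were higher (30.4%, against 8.27% of all compared genes) and 12 lower (7.14%, against 4.49%). Of the 51, 9 reached the expression minimum only at day 5. Within them, 21 were 4-fold higher and 1 was 4-fold lower, and the median difference was 0.33, turning to -0.05 after rescaling to a common sum, where 33 were higher and 21 lower. The median over all compared genes on that scale was -0.31. Changes were unevenly spread over these lists, as set out next.

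Among collagen chains, 8 of 22 compared genes were higher, 1 was lower, and the median was 0.68. It was 0.54 under median-ratio scaling with 6 higher, and 0.30 after rescaling to a common sum with 4 higher. The chains of types I and III, which form the bulk of interstitial fibrils, were already among the most abundant transcripts at rest. Col1a1 (chr11:94936270-94951856, mm10) stood at 1174 FPKM in the quiescent library and 628, 1319, 3205, 4894, 4756, 4612 and 4146 on days 1, 2, 3, 4, 5, 7 and 10, a difference of 2.02. Its level dipped on day 1, crossed the quiescent one on day 2 and then held between 4146 and 4894 FPKM from day 4 to day 10. Col1a2 (chr6:4505697-4541543), the partner chain of type I, had 1528 FPKM in the quiescent library and 685, 1380.0, 3003, 3927, 3622, 3818 and 3772 on days 1, 2, 3, 4, 5, 7 and 10, a difference of 1.25. Col3a1 (chr1:45311538-45349706) was highest of its 8 values at day 5, with 2121 FPKM in the quiescent library and 1246, 2304, 5139, 6305, 6575, 6168 and 4507 on days 1, 2, 3, 4, 5, 7 and 10 and a difference of 1.63. Both followed the course of Col1a1, low on day 1 and high from day 3 onward. Largest in ratio was Col8a1, a short-chain collagen of vessel walls and remodelling tissue, at 7.52 FPKM in the quiescent library and 60.4, 55.2, 102, 95.6, 82.5, 72.1 and 64.3 on days 1, 2, 3, 4, 5, 7 and 10, a difference of 3.29. Unlike the fibrillar chains, it was already up on day 1.

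Further chains past the threshold were Col5a2 (1.19), which nucleates fibrils, Col12a1 (1.35) and Col16a1 (1.08), which sit on fibril surfaces, and Col6a3 (1.13), a chain of the beaded filament collagen. Their partners did not pass. Col5a1 differed by 0.67, Col6a1 by 0.30 and Col6a2 by 0.68. Chains of the basement membrane network lay close to their quiescent level, with Col4a1 at 363 and 311 FPKM and Col4a2 at 227 and 199. Col6a6 was the lower member, at 14.1 FPKM in the quiescent library and 3.98 at day 5. On the log2(FPKM + 1) scale, every one of the 22 chains was within 2-fold of its own value on both day 4 and day 7, against 96.9% of all compared genes. In plain FPKM, Col6a6 (8.26 on day 4 and 8.18 on day 7) and Col4a5 (6.35 at day 5, 13.7 on day 4) differed more.

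**Figure D4:**
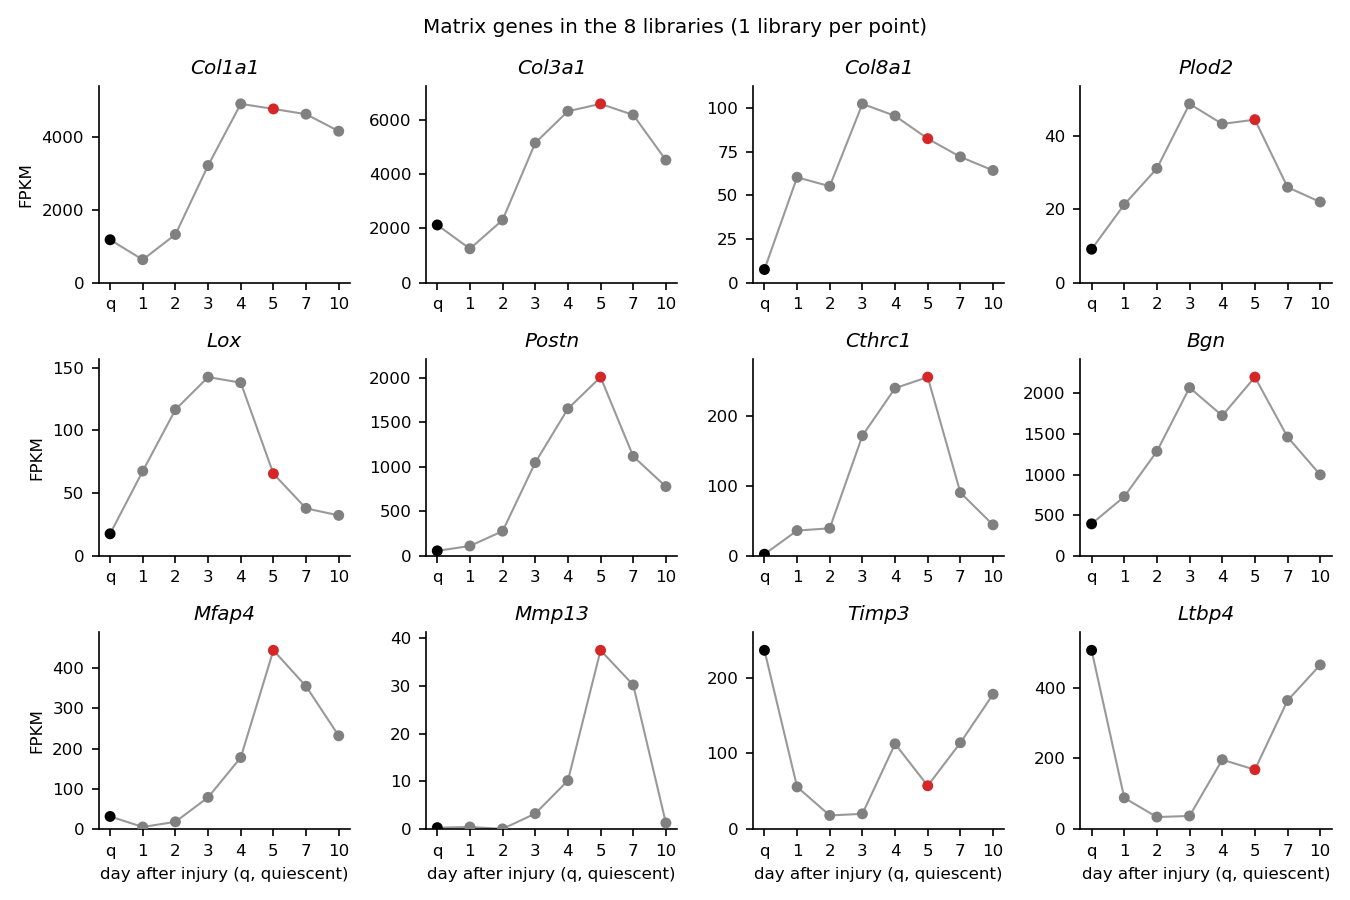
FPKM (linear axes from 0, each panel on its own scale) of 12 matrix genes in the 8 libraries, with the quiescent library in black (q) and day 5 in red. Col3a1, Postn, Cthrc1, Bgn, Mfap4 and Mmp13 are highest at day 5, Lox is highest on day 3, and Timp3 and Ltbp4 are highest in the quiescent library.

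Promoter sequences of Col1a2, Col3a1 and Postn are shown because these abundant matrix transcripts moved in the same direction. They are from RefSeq (GRCm38.p6, plus strand) and run from 250 bases before to 50 bases after the annotated start, with the letters of 2 searched motifs in capitals. TATAAA and CCAAT were searched on both strands and the motifs do not overlap.
Col1a2, chr6:4505368-4505667: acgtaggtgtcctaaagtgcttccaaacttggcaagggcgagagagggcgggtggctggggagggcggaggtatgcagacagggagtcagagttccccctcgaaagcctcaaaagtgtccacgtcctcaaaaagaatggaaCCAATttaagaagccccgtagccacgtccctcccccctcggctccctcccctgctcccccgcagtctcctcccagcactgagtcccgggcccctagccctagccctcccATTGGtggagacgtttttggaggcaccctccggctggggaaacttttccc
Col3a1, chr1:45311288-45311587: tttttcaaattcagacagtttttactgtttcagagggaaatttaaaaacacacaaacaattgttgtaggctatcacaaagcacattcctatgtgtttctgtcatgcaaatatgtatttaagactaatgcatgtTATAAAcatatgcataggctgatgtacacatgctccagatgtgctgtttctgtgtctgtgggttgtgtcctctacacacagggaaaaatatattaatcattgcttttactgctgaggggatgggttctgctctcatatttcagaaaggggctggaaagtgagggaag
Postn, chr3:54360857-54361156: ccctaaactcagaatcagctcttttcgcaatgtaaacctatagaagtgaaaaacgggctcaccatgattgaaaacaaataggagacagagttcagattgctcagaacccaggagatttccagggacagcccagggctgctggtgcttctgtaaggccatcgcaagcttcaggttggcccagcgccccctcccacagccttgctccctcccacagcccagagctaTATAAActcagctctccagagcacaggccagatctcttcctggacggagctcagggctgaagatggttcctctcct
Postn has TATAAA at position -26 and Col3a1 has it at -117, counted from the annotated start. Col1a2 has CCAAT at -109 and on the minus strand at 0, and its RefSeq start lies 79 bp from the deposited one. TATAAA was in 13.6% and CCAAT in 37.4% of all 32851 promoters of the table, so either match is common.

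Genes that fold, modify and cross-link collagen were higher as a group, with 12 of 29 past the threshold, 1 lower and a median of 0.67. The median was 0.53 under median-ratio scaling and 0.29 after rescaling to a common sum, where 4 were higher and 2 lower. P4ha3, a prolyl hydroxylase subunit, stood at 2.39 FPKM in the quiescent library and 3.48, 17.3, 31.1, 22.3, 22.1, 9.76 and 8.58 on days 1, 2, 3, 4, 5, 7 and 10, a difference of 2.77. Plod2, which hydroxylates lysines of the collagen telopeptides, had 9.12 FPKM in the quiescent library and 21.3, 31.2, 48.8, 43.3, 44.5, 26.02 and 22.00 on days 1, 2, 3, 4, 5, 7 and 10, a difference of 2.17. Both were more than 4-fold higher at day 5 than in the quiescent library, and both had already passed their highest value on day 3. The more abundant isoforms of these enzymes did not pass, with P4ha1 at 0.35, P4ha2 at 0.29, Plod1 at 0.78 and Plod3 at 0.49.

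The cross-linking enzymes differed in timing. Lox, the main lysyl oxidase, stood at 17.6 FPKM in the quiescent library and 67.6, 117, 142, 138, 65.5, 37.8 and 32.3 on days 1, 2, 3, 4, 5, 7 and 10, a difference of 1.84 at day 5. Its level on day 5 was less than that on days 2, 3 and 4 while the collagens were still high. Loxl3 differed by 1.23, whereas Loxl1 (297 and 315 FPKM) and Loxl2 (109 and 104) lay close to quiescent. Serpinh1, the collagen chaperone HSP47, had 527 FPKM in the quiescent library and 1159 at day 5, and the peptidyl-prolyl isomerases Fkbp7 (1.40), Fkbp10 (1.29), Fkbp14 (1.17) and Ppib (1.21) were higher too. Lepre1 (1.27) and Crtap (1.01), which work with Ppib in prolyl 3-hydroxylation, also passed. The lower gene was Pcolce2 (-1.48), an enhancer of procollagen trimming, while its relative Pcolce differed by 0.67 and the trimming protease Bmp1 by -0.13.

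The general secretory pathway moved alongside. Of 65 genes for translocation into the endoplasmic reticulum, folding and export, 16 were higher, 1 was lower, and 58 had a difference above 0 on FPKM as deposited, with a median of 0.69. After rescaling to a common sum the median was 0.32 and 5 were higher. The most changed was Pdia5, a protein disulfide isomerase, at 10.4 FPKM in the quiescent library and 22.9, 42.7, 68.1, 40.8, 48.5, 28.5 and 21.3 on days 1, 2, 3, 4, 5, 7 and 10, a difference of 2.11. The translocon subunits Sec61g (1.95) and Sec61b (1.92) followed, then Ssr4 (1.46) and Ckap4 (1.42). Sec61b stood at 116 FPKM in the quiescent library and 455, 755, 594, 322, 439, 209 and 143 on days 1, 2, 3, 4, 5, 7 and 10, so its highest value was on day 2. The lower gene, Creb3l2 (-1.03), encodes a membrane-bound transcription factor of secretory genes. After centring on genes of like length, no gene of the list was lower.

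The endoplasmic reticulum stress element is the known site of the unfolded protein response in promoters of such chaperones, and the matches are shown for that reason. It reads CCAAT, 9 bases of any kind, then CCACG, and so holds a CCAAT box. It was found in 7 of the 54 promoters of this list that RefSeq holds (13.0%), against 0.196% of the promoters of compared genes and 0.119% of all promoters, searching 300 bases on both strands. The list contains textbook targets of this response, so the match is not independent of how it was composed. Capitals mark the fixed letters, and sites on the minus strand are written 5′ to 3′ on that strand.
Pdia6, chr12:17266491-17266509, plus: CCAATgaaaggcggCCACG
Calr, chr8:84847075-84847093, plus strand of the genome: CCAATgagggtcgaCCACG
Hspa5, chr2:34772025-34772043, plus: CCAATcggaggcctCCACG
Canx, chr11:50325800-50325818, minus: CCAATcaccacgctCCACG
Pdia6 was past the threshold, with a difference of 1.27. The others were not, with Calr at 370.4 and 722 FPKM, Hspa5 at 224 and 362, and Canx at 62.1 and 81.1. The remaining genes with a site, Hsp90b1 (with 2 sites), Creld2 and Dnajc3, differed by 0.76, 0.69 and -0.18. Holding the element and passing the threshold therefore coincided in 1 of 7 genes.

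Matricellular and provisional matrix genes included the 2 largest increases among genes at 10 FPKM or more. Of 25, 10 were higher, 4 of which reached the expression minimum only at day 5, and 2 were lower, with a median of 0.54 (0.40 under median-ratio scaling, 0.16 after rescaling to a common sum). Cthrc1 (chr15:39076932-39087119), a secreted collagen triple helix repeat protein of activated fibroblasts, had 2.34 FPKM in the quiescent library and 36.3, 39.6, 172, 241, 256, 90.7 and 44.5 on days 1, 2, 3, 4, 5, 7 and 10, a difference of 6.27. Its quiescent level is low and carries most of the counting error of 0.22 on the difference. Postn (chr3:54361107-54391041), encoding periostin, stood at 56.2 FPKM in the quiescent library and 111, 278, 1048, 1653, 2009, 1118 and 778 on days 1, 2, 3, 4, 5, 7 and 10, a difference of 5.13. Both increased from day to day up to day 5 and were less by day 7, and day 10 was still above quiescent for each.

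Tenascin-C was an exception to that shape. Tnc had 2.81 FPKM in the quiescent library and 62.6, 44.3, 48.5, 126, 72.8, 77.5 and 107 on days 1, 2, 3, 4, 5, 7 and 10, a difference of 4.28, and its day 5 value lies under those of days 4, 7 and 10. Thbs4, a thrombospondin of tendon and muscle attachment, was still climbing at day 5, with 89.8 FPKM in the quiescent library and 166, 172, 170.1, 450.3, 636, 1173 and 1291 on days 1, 2, 3, 4, 5, 7 and 10. Spp1, which encodes osteopontin, stood at 1.34 FPKM in the quiescent library and 41.9, 96.1, 206, 30.5, 49.9, 17.99 and 7.51 on days 1, 2, 3, 4, 5, 7 and 10. It is also made by macrophages, and like their marker sum it was higher on days 3 and 5 than on day 4; the part of macrophages in its level was not tested. Sparc, a collagen-binding glycoprotein, went from 1602 to 4424 FPKM, and the CCN family genes Ctgf (1.14) and Wisp1 (2.55) and the thrombospondin gene Thbs1 (1.19) also passed. Fibronectin did not, since Fn1 stood at 806 FPKM in the quiescent library and 753 at day 5. Tgfbi (-1.47) and Ecm1 (-1.01) were the lower members, and tenascin-X, which regulates collagen fibril spacing in mature tissue, had 455 and 233 FPKM for Tnxb.

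Proteoglycans split. Of 25, 8 were higher and none was lower, yet 12 had a difference below 0 and the median was 0.02, turning to -0.12 under median-ratio scaling, with 1 lower, and -0.36 after rescaling to a common sum, with 4 lower. Bgn, which encodes the small leucine-rich proteoglycan biglycan, stood at 394 FPKM in the quiescent library and 729, 1286, 2069.8, 1725, 2199, 1462 and 997 on days 1, 2, 3, 4, 5, 7 and 10, a difference of 2.48. Its relatives on the same fibrils did not all do so. Lum (1.58) and Aspn (1.35) were higher, while decorin, the most abundant of them at rest, had 4577 FPKM in the quiescent library and 3680.2 at day 5. The syndecans Sdc1 (1.73) and Sdc3 (2.18) and the glypican Gpc1 (1.52), all cell surface heparan sulfate carriers, passed as well. Srgn (1.25), a proteoglycan of blood cell granules, passed at low FPKM (8.65 and 21.9).

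Among 18 elastic fibre genes, 6 were higher and 2 lower, with a median of 0.17 that turned to -0.18 after rescaling to a common sum, where 5 were higher and 4 lower. Mfap4, a microfibril-associated protein, had 31.4 FPKM in the quiescent library and 5.20, 18.1, 78.9, 178, 445, 355 and 232 on days 1, 2, 3, 4, 5, 7 and 10, a difference of 3.78. Its level was below quiescent on days 1 and 2, and day 5 held the highest of the 8 values. Mfap2 (2.07), Fbln7 (2.09), Emilin1 (1.74), Efemp2 (1.27) and Ltbp2 (1.46) were higher too, while Ltbp1 just passed as lower (48.2 and 23.5 FPKM). In the opposite direction, Ltbp4, which anchors latent TGF-beta to elastic fibres, had 505 FPKM in the quiescent library and 88.3, 34.03, 37.1, 196, 168, 364 and 464 on days 1, 2, 3, 4, 5, 7 and 10, a difference of -1.58. Basement membrane genes held no higher member out of 15. Their median was -0.23, and 0.14 once the differences were centred on genes of like length, their transcripts being long (median 6091 bp). Lamb2, a laminin chain, was the lower one, at 255 and 110.1 FPKM.

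Proteases and inhibitors both held large changes. Of 26 proteases 4 were higher and 2 lower, with a median of 0.24 that turned to -0.14 after rescaling to a common sum. Mmp13 (chr9:7272514-7283333), a collagenase that cuts fibrillar collagen, stood at 0.292 FPKM in the quiescent library and 0.441, 0.0366, 3.24, 10.1, 37.4, 30.2 and 1.28 on days 1, 2, 3, 4, 5, 7 and 10, a difference of 4.89. It was above 30 FPKM on days 5 and 7 and under 11 FPKM in each other library. Mmp3 (2.73), Adam12 (3.01) and the cysteine protease Ctsk (1.63) were the other higher members, and Adam33 (-1.51) and Adamts5 (-1.17) were lower. Mmp13 and Adam12 reached the expression minimum only at day 5.

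The tissue inhibitors of metalloproteases went opposite ways. Timp1 stood at 15.9 FPKM in the quiescent library and 1581, 1277, 605, 247, 275, 208 and 172 on days 1, 2, 3, 4, 5, 7 and 10, a difference of 4.03, and was far above quiescent from day 1 on. Timp3 had 236 FPKM in the quiescent library and 55.6, 17.99, 20.1, 113, 57.2, 114 and 178 on days 1, 2, 3, 4, 5, 7 and 10, a difference of -2.03, the only 4-fold lower gene among the 168 matrix genes. Timp2, abundant at rest, had 1164 and 574 FPKM. Of the 13 inhibitors, 3 were higher and 3 lower, with a median of 0.32 that turned to -0.05 after rescaling to a common sum. Reck, a membrane-anchored inhibitor, was the other lower one (-1.22), and Serpina3n (2.25) and Tfpi2 (2.34) were the other higher ones.

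Of 25 contractile myofibroblast genes, 4 were higher, a larger share than the 8.27% of all compared genes. They were Fhl2 (2.71), which reached the expression minimum only at day 5, Csrp2 (1.83), Actn1 (1.28) and Tpm2 (1.16), and none was lower. The median was 0.25 and turned to -0.12 after rescaling to a common sum, where 2 were higher and 2 lower. Acta2, which encodes the smooth muscle actin used to define myofibroblasts, stood at 22.5 FPKM in the quiescent library and 10.8, 58.7, 83.1, 57.3, 39.1, 50.6 and 81.1 on days 1, 2, 3, 4, 5, 7 and 10, a difference of 0.77 that did not reach the threshold. Its day 5 value was less than those of days 2, 3, 4, 7 and 10.

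Transcripts of TGF-beta, activin and BMP signalling, of which TGF-beta drives matrix genes in fibroblasts, held no higher member out of 35, and 5 were lower. The median was -0.33, and under median-ratio scaling and a common sum it was -0.46 and -0.69 with 8 and 10 lower. Centred on genes of like length, the median was -0.23, with 3 lower and 1 higher. The lower genes were the ligands Bmp4 (-1.58), Bmp6 (-1.81), Bmp7 (-1.74) and Inhbb (-1.05) and the receptor Bmpr2 (-1.40). Of these 5, 3 reached the expression minimum only in the quiescent library, which fixes their direction. Bmp4 stood at 38.3 FPKM in the quiescent library and 4.96, 3.85, 7.16, 11.4, 12.1, 16.8 and 21.9 on days 1, 2, 3, 4, 5, 7 and 10, below quiescent on every day shown. The ligand Tgfb1 had 17.6 and 23.9 FPKM and Tgfb3 had 31.6 and 43.7, while Tgfb2 had 24.6 and 12.8. Of the feedback genes on this list that TGF-beta is known to induce, Pmepa1 differed by 0.89, Smad7 by -0.60 and Skil by 0.10, short of the threshold. Matrix genes that TGF-beta is also known to induce were mixed. Ctgf (1.14), Postn (5.13) and Col1a1 (2.02) passed, Fn1 (-0.098) did not, and Tgfbi (-1.47) was lower. These examples were picked after their values were seen. These are transcript levels and say nothing of ligand release or receptor activity.

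Genes of tendon and muscle attachment were higher in 7 of 18 cases and lower in 1, with a median of 0.74 (0.63 and 0.41 under the other scalings). Cilp, a cartilage intermediate layer protein, had 69.2 FPKM in the quiescent library and 11.1, 49.6, 153, 456, 506, 511 and 396 on days 1, 2, 3, 4, 5, 7 and 10, a difference of 2.85. Scx, the transcription factor of tendon cells, was just past the threshold at day 5 and far higher on days 7 and 10, at 3.72 FPKM in the quiescent library and 0.817, 0.593, 1.70, 7.24, 9.12, 69.6 and 95.4 on days 1, 2, 3, 4, 5, 7 and 10. Of 8 compared bone and cartilage genes, 4 were higher and 1 was lower. Alpl, the osteoblast alkaline phosphatase, was the lower one, at 6.75 and 2.77 FPKM. Mgp, which encodes an inhibitor of matrix calcification, went from 995 to 4316 FPKM, Runx1 from 1.06 to 9.77 and Runx2 from 0.986 to 5.24. Spp1 was the remaining one, and it and both Runx genes reached the expression minimum only at day 5. Of 33 listed bone and cartilage genes, 25 either were not in the table or lay under the expression minimum.

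Imprinted genes and the IGF system, which control fetal and tissue growth, had a median of 1.00, with 11 of 22 higher and 1 lower (median 0.87 under median-ratio scaling, 0.63 after rescaling to a common sum). Of the 11, 2 reached the expression minimum only at day 5. H19, an imprinted noncoding RNA at chr7:142575532-142578146, stood at 21.9 FPKM in the quiescent library and 18.2, 45.1, 196, 213, 592, 269 and 60.7 on days 1, 2, 3, 4, 5, 7 and 10, a difference of 4.69. Its highest value was that of day 5. Igf2, its oppositely imprinted neighbour, had 10.2 FPKM in the quiescent library and 3.35, 2.15, 8.88, 16.02, 51.2, 46.95 and 17.00 on days 1, 2, 3, 4, 5, 7 and 10, a difference of 2.22. Mest had 8.11 FPKM in the quiescent library and 1.60, 3.82, 107, 52.3, 195, 141 and 94.5 on days 1, 2, 3, 4, 5, 7 and 10, a difference of 4.43. All 3 were under their quiescent level on day 1 and above it on days 5 and 7. Plagl1 (2.13), a zinc finger regulator of this group, the noncoding RNAs Rian (1.96), Meg3 (1.35) and Mirg (1.81), their locus partner Dlk1 (1.86), the cell cycle inhibitor Cdkn1c (1.45) and the adaptor Grb10 (1.06) were higher. Of the binding proteins, Igfbp7 (1.82) was higher and Igfbp5 (-1.23) was the lower member.

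Genes of resting fibroblast subsets were often lower. Of 37, 15 were lower, 2 were higher and 33 had a difference below 0, with a median of -0.73 (-0.87 and -1.11 under the other scalings). This list was drawn from known fibroblast markers with earlier results of these data in view, so its direction is a description. Gsn, encoding the actin-severing protein gelsolin, was the most abundant of them at 13437 FPKM in the quiescent library and 3419, 1498, 1534, 6118, 4015, 7744 and 9383 on days 1, 2, 3, 4, 5, 7 and 10, a difference of -1.74. Myoc, which encodes myocilin, had 1813 FPKM in the quiescent library and 109, 200.2, 184, 861, 509.9, 856 and 954 on days 1, 2, 3, 4, 5, 7 and 10, a difference of -1.83. Pi16, a marker of adventitial fibroblasts, did not pass, at 2362 FPKM in the quiescent library and 259, 227, 299, 1429, 1423, 2039 and 1506 on days 1, 2, 3, 4, 5, 7 and 10. For each of these genes the lowest values were on days 1 to 3, and day 5 lay between them and quiescent. The higher members were Lum and the chemokine Cxcl14 (1.01).

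Wnt and Hedgehog genes were also lower more often than all compared genes (4.49%), 8 of 28, with a median of -0.56. Of the 8, 2 reached the expression minimum only in the quiescent library. Under median-ratio scaling and a common sum the median was -0.69 and -0.90, with 10 and 13 lower. Centred on genes of like length, it was -0.34, with 6 lower. Wnt10b, a Wnt ligand that inhibits fat formation, stood at 42.1 FPKM in the quiescent library and 2.06, 1.30, 2.71, 16.8, 7.38, 13.4 and 19.7 on days 1, 2, 3, 4, 5, 7 and 10, a difference of -2.36. The antagonist Dact2 (-1.79) and the Hedgehog effector Gli1 (-1.66) were lower too. Sfrp1 (1.31), a secreted Wnt antagonist, was the higher one.

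Cell division genes were well past their maximum but had not returned to the quiescent level. All 13 compared G2 and M phase genes were higher, with a median of 2.35. They passed the expression minimum only through their day 5 level, which fixes their direction, and the other 24 of 37 listed genes did not reach it. Cdk1, the mitotic kinase, had 0.388 FPKM in the quiescent library and 5.05, 41.3, 22.2, 6.88, 7.49, 3.82 and 4.10 on days 1, 2, 3, 4, 5, 7 and 10, a difference of 2.61. Its highest value was on day 2, as it was for Ccnb2 (2.90) and Birc5 (2.76). Of 19 compared S phase genes, 9 reached the minimum only at day 5, among them the thymidine kinase gene Tk1 (2.44), the replication gene Gins2 (2.33) and Rrm2 (1.90), a ribonucleotide reductase subunit, which were 3 of the 4 higher ones. Of the genes at 5 FPKM or more in both libraries, Rfc2 (1.05) was higher, while Mcm4 (0.05), E2f1 (0.13), Tyms (0.16) and Pcna (0.58) were not. Of 26 immediate early genes, 7 were lower and none higher, with a median of -0.67; under median-ratio scaling and a common sum 10 and 14 were lower. Klf4 (-1.26), Zfp36 (-1.22), Nr4a1 (-1.19) and Fosb (-1.14) led these.

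Chemokine, interferon and complement genes must be read beside the macrophage marker sums of 88.1 FPKM in the quiescent library and 948 at day 5. Of 23 chemokine and cytokine genes 10 were higher and none lower, with a median of 0.60; 4 of the 10 reached the expression minimum only at day 5. After rescaling to a common sum 6 were higher and 2 lower, with a median of 0.23, and after centring on genes of like length 6 were higher. Ccl8, a monocyte attractant, had 11.9 FPKM in the quiescent library and 168, 142, 128, 174, 239, 98.2 and 33.2 on days 1, 2, 3, 4, 5, 7 and 10, a difference of 4.22. On day 4, when the macrophage sum was 255 FPKM, Ccl8 was at 174 FPKM. The part of macrophages in the level of Ccl8 was not tested. Ccl5 was at the floor in the quiescent library and at 12.5 FPKM at day 5. Of 26 interferon-induced genes 11 were higher and none lower, with a median of 0.77, and after rescaling to a common sum 7 were higher and 1 lower. The 11 were led by Isg15 (2.91), Oas2 (2.83) and Bst2 (2.65). Of the 11, 2 reached the expression minimum only at day 5, Oas2 among them.

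The complement list had 4 of 17 genes higher and 2 lower, and its median of 0.17 turned to -0.04 when the markers of other cell types were left out and to -0.20 after rescaling to a common sum. C1qa (3.56), C1qb (3.67) and C1qc (3.26) are themselves on the macrophage list and reached the expression minimum only at day 5. The remaining higher gene was Cfb, which encodes factor B, at 77.1 and 189.9 FPKM. The lower ones were C3, the central component, at 816 and 376, and C7, a part of the membrane attack complex, at 112 FPKM in the quiescent library and 30.3, 7.15, 3.27, 44.2, 22.3, 45.97 and 108 on days 1, 2, 3, 4, 5, 7 and 10, a difference of -2.29.

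Muscle fibre markers were higher in 7 of 11 cases, 3 of which reached the expression minimum only at day 5, with a median of 1.33. After centring on genes of like length, 3 of the 11 were higher and the median was 0.58. Acta1, the skeletal muscle actin, stood at 7.30 FPKM in the quiescent library and 2.34, 1.88, 6.53, 8.59, 29.97, 33.9 and 15.03 on days 1, 2, 3, 4, 5, 7 and 10. Mylpf (2.08) and Myl1 (2.07), both myosin light chains, were higher as well, while Ttn, encoding titin, was at 0.00508 and 0.0211 FPKM and the satellite cell factor Pax7 at 0.0381 and 0.0681. Myog, the factor of differentiating myoblasts, was at the floor in the quiescent library and at 4.19 FPKM at day 5, under the minimum of the comparison.

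Day 5 was also set beside its neighbours, days 4 and 7, on the same log2(FPKM + 1) scale. The genes remain those at 5 FPKM or more at day 5 or in the quiescent library, so a gene high at day 5 alone was included and one high on day 4 or 7 alone was not. Of all 8382 genes, 55 (0.656%) were at least 2-fold higher at day 5 than on both days, and 96.9% lay within 2-fold of both. Without any expression minimum, and with 1 row per symbol, 16 of 25 macrophage and monocyte markers, 5 of 11 neutrophil markers and 2 of 8 red cell markers (Hba-a2 and Hbb-b2) were at least 2-fold above both days, against 96 of all 23846 rows. Among the matrix lists, 1 of 36 proteases (Mmp3) and 1 of 34 proteoglycans (Srgn) were, and no gene of the collagen, processing, matricellular, elastic fibre, basement membrane or inhibitor lists. Of the compared genes, those within 2-fold of both days were 27 of 29 collagen processing genes, 20 of 25 matricellular genes, 15 of 15 basement membrane genes and 25 of 25 contractile genes.

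The differences also followed transcript length. The selection set no limit on it, but FPKM is itself scaled by transcript length. Of the compared genes, 8335 have a length in GENCODE M21 (99.4%), taken as the longest basic transcript. Over 5 quintiles of genes from shortest to longest transcript, the median difference was 0.54, 0.21, 0.05, -0.13 and -0.31. The share higher at day 5 was 20.5% in the shortest quintile and 3.48% in the longest, and the share lower was 0.899% and 10.9%. Higher genes had a median transcript of 1605 bp, lower genes 4547 bp and all compared genes 2848 bp. Every other day gave a slope of the same sign. From the shortest to the longest quintile the median went from 0.63 to -0.17 on day 1, 0.85 to -0.29 on day 2, 0.62 to -0.20 on day 3, 0.23 to -0.11 on day 4, 0.35 to -0.22 on day 7 and 0.10 to 0.006 on day 10. The span was wider on day 2 than on day 5. Its part in the counts was not tested beyond one rescaling. When each difference was centred on genes of like length, chosen after seeing the data, 442 genes were higher and 334 lower. Of the original 693 and 376, 398 and 249 were still counted in the same direction.

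**Figure D5:**
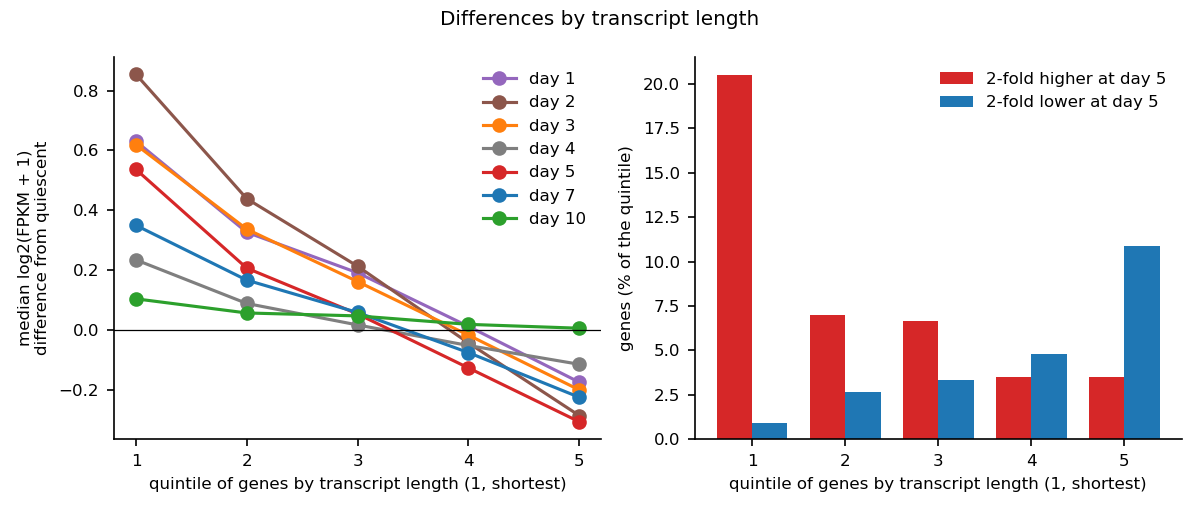
Left, median difference of log2(FPKM + 1) from quiescent for quintiles of the compared genes by transcript length (1, shortest) on days 1, 2, 3, 4, 5, 7 and 10; right, the percentage of each quintile 2-fold higher (red) or lower (blue) at day 5. At day 5 the median goes from 0.54 in the shortest quintile to -0.31 in the longest, and the share of higher genes from 20.5% to 3.48%.

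This bears unequally on the lists. Collagen chains have long transcripts (median 6025 bp) and their median difference was 0.68 as measured and 0.95 after centring, with 11 of 22 higher. Matricellular genes went from 0.54 to 0.68 and elastic fibre genes from 0.17 to 0.40. The endoplasmic reticulum list went from 0.69 to 0.55, with 10 instead of 16 higher, the chemokines from 0.60 to 0.30 and the macrophage markers from 3.42 to 3.04. The direction did not follow the median transcript of a list in every case, since the matricellular list (2759 bp) moved up and the endoplasmic reticulum list (2770 bp) down.

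The promoters of the changed genes differed in base composition. A RefSeq promoter was matched for 6634 of the compared genes, for 512 of the higher, 103 of the 4-fold higher and 299 of the lower. The observed over expected frequency of CpG had a median of 0.38 in promoters of 4-fold higher genes, 0.69 in higher, 0.71 in lower and 0.79 in all compared ones. TATAAA occurred in 17.5% of the 4-fold higher promoters, 9.96% of the higher, 6.69% of the lower and 6.90% of all compared. The AP-1 motif TGANTCA was found in 8.74%, 6.64%, 7.36% and 4.64% of the same groups, and CCAAT in 41.7%, 41.0%, 33.4% and 38.4%. Over all 32851 promoters in the table, most of which belong to genes not compared here, TATAAA was in 13.6% and the median CpG ratio was 0.38. These are letter counts in 300 bases, searched on both strands, and no binding was measured.

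Ranked by size alone among genes at 10 FPKM or more, the 15 largest increases were Cthrc1, Postn, C1qtnf3, Mmp13, H19, Ctss, Hp, Spp1, Mest, Cd52, Tnc, Saa3, Ccl8, Lyz2 and Timp1. Of these, Ctss and Lyz2 are on the macrophage list. C1qtnf3, a secreted protein of the C1q and TNF family, had 1.48 FPKM in the quiescent library and 0.0953, 1.01, 8.11, 68.95, 85.8, 44.2 and 20.3 on days 1, 2, 3, 4, 5, 7 and 10, a difference of 5.13. Its rise began on day 3, later than that of Cthrc1. Hp, which encodes the haemoglobin scavenger haptoglobin, had 0.493 FPKM in the quiescent library and 3.02, 3.45, 74.5, 6.46, 35.6, 9.82 and 4.62 on days 1, 2, 3, 4, 5, 7 and 10, and the acute phase gene Saa3 was at the floor in the quiescent library and at 18.3 FPKM at day 5. Cd52, a surface antigen of lymphocytes and myeloid cells, had 1.65 FPKM in the quiescent library and 19.1, 20.2, 34.7, 14.2, 52.97, 5.59 and 6.15 on days 1, 2, 3, 4, 5, 7 and 10. Both Hp and Cd52 were lower on day 4 than on days 3 and 5, as the macrophage marker sum was. Mest and Sec61b, which are not on the macrophage list, had that shape too. The part of macrophages in the levels of Hp and Cd52 was not tested.

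Among the 15 largest decreases were Olfml2a, Mrgprg, Galnt15, Cbx7, Wnt10b, Creb5, Krt80, Irs2, Fgf2, C7, Klf3, Arl4d, Spock2 and Chst1. Olfml2a, an extracellular olfactomedin-like protein, had 35.2 FPKM in the quiescent library and 1.48, 1.23, 1.49, 9.13, 3.57, 9.62 and 26.4 on days 1, 2, 3, 4, 5, 7 and 10, a difference of -2.99. Cbx7, a Polycomb subunit, had 22.6 FPKM in the quiescent library and 2.05, 1.28, 1.79, 5.91, 3.52, 9.01 and 11.9 on days 1, 2, 3, 4, 5, 7 and 10, a difference of -2.39. Both were low from day 1 and still under their quiescent level on day 10. The insulin receptor substrate Irs2 (-2.34), the growth factor Fgf2 (-2.33) and the transcription factors Creb5 (-2.36) and Klf3 (-2.14) were at their lowest of the 8 libraries at day 5, except Klf3, which was lowest on day 3.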

How the data were processed

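The authors deposited 1 table of FPKM values for 8 libraries of polyA RNA, prepared with a strand-keeping kit per the labels' protocols. The mm10 build and the tools TopHat2, Cufflinks, Bowtie2 and bcl2fastq are named per the submitters' processing notes. Their roles and versions, the annotation, filters and strand setting are not given in the sources, so overlapping and antisense genes may share reads. FPKM is relative to all mapped fragments, so a rise of abundant genes lowers the rest. Values of 0 or 0.001 were read as a floor, and no fold was taken against them. Locus starts were raised by 1 to count from 1.

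Differences were taken on log2(FPKM + 1), which understates changes of low genes, for rows spanning 200 bp or more and at 5 FPKM or more in the higher library. Each time point is 1 library, so no test was made. Depth was estimated from the steps of low FPKM values in 6822 genes; of values worth few fragments, 75.0% to 78.6% lay within 0.15 of a whole fragment, where 30% would by chance. Counting errors cover counting only. The members, 27 gene lists and 9 marker lists were chosen with earlier results of these data known. Named genes were the 15 largest increases and decreases at 10 FPKM or more on a symbol with 1 row, the 3 members of each list that changed most in each direction, and a fixed set; other genes in the text were picked after their values were seen, and some genes the rule names are not reported here. In 11 alternatives the choices varied were the pseudocount, expression minimum, scaling, span, repeated symbols, floor values and marker genes, and 1 alternative was added after seeing the data, centring differences in 20 bins of transcript length. Promoters came from RefSeq (GRCm38.p6). Scripts were tested on simulated data and ran in Python 3.11.15 with pandas 2.3.3 and NumPy 2.4.6.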

Additional observations from a re-analysis of the deposited data

Results flagged for a closer look

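Rows spanning under 200 bp were outside the comparison, and some carried a large signal. Of 50 such rows at 5 FPKM or more in the higher library, 17 were at least 2-fold higher at day 5 than in the quiescent library and 13 were lower. They are mostly small nucleolar RNAs and microRNA precursors. Mir703, for example, had 33.97 FPKM in the quiescent library and 1721 at day 5, and Snora31 had 82.4 and 582, while Mir27a had 326 FPKM in the quiescent library and was at the floor at day 5. Many of these rows were at the floor in several of the 8 libraries, and a library of polyA RNA is not made to measure them.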

How the results depend on the processing

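No paired analysis was possible because each time point is 1 library. The count of higher genes moved from 693 to 440 at a minimum of 20 FPKM, 356 after rescaling to a common sum and 442 after centring on length. The count of lower genes moved from 376 to 168 with a pseudocount of 5, 188 at a minimum of 20 FPKM and 1002 on a common sum. The count of 4-fold higher genes moved from 147 to 52 with a pseudocount of 5 and 76 at 20 FPKM. The count of 4-fold lower genes moved from 20 to 42 with a pseudocount of 0.1, 2 with 5, 11 at 20 FPKM, 31 under median-ratio scaling, 58 on a common sum and 33 with rows of every span. The stricter minimum tests fewer genes (3603); the cause of the other moves was not tested. Of the other summary counts, 34 stayed within 1.5 times.

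List medians turned as follows, and each is to be read against the median of all genes compared under its setting. That median was -0.31 on a common sum, -0.07 under median-ratio scaling, 0 centred on length and 0.25 at 20 FPKM. On a common sum, proteoglycans had -0.36, elastic fibres -0.18, matrix proteases -0.14, protease inhibitors -0.053, myofibroblast and contractile genes -0.12, proline, serine and glycine synthesis -0.35, complement -0.20 and glycolysis -0.27. Under median-ratio scaling, proteoglycans had -0.12, proline, serine and glycine synthesis -0.12 and glycolysis -0.032. Centred on length, basement membrane had 0.14, adipogenic genes 0.011, proline, serine and glycine synthesis -0.11, glycolysis -0.11 and red cell -0.37. At 20 FPKM, elastic fibres had -0.014, proline, serine and glycine synthesis -0.43, progenitor identity 0.074 and integrins and adhesion 0.026. At 1 FPKM, proline, serine and glycine synthesis had -0.021. With no filter red cell had -0.11, and without markers of other cell types complement had -0.039. Of the values for single genes and list medians, 718 stayed within their counting error or tolerance, 134 moved beyond it and 23 turned. A single gene was counted as turned only if its difference was at least 1 in size. No call of a gene under about 5 FPKM is given, except within the counts stated to use no expression minimum.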

Other observations

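Several metabolic and adhesion groups were close to quiescent at day 5. Of 16 glycolysis genes, 1 was higher, Ldha (89.5 and 193 FPKM), and none was lower, with a median of 0.10; Ldha passed under none of the 3 other scalings, and the median turned to -0.03 under median-ratio scaling, -0.27 with a common FPKM sum and -0.11 centred on length. Of 20 genes for proline, serine and glycine synthesis, which supply the residues most abundant in collagen, none was higher and Glul, glutamine synthetase, was lower (-1.20); the median was 0.01 and turned to -0.12, -0.35 and -0.11 under the same 3 scalings. Among 19 integrin and adhesion genes, Cd44 (1.67), a hyaluronan receptor, Vcam1 (1.37) and Cdh11 (1.25), a fibroblast cadherin, were higher, and the collagen receptors Itga11 (-1.38) and Ddr2 (-1.02) were lower. Itga11 stood at 56.8 FPKM in the quiescent library and 3.61, 7.20, 11.4, 33.6, 21.2, 40.2 and 40.5 on days 1, 2, 3, 4, 5, 7 and 10. Both collagen receptors were thus at less than their quiescent level at day 5 in the library in which Col1a1 was at 4756 FPKM. Ddr2 only just passed the threshold, and after centring on genes of like length 1 gene of this list was lower instead of 2.

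Adipogenic genes had a median of -0.24 (0.01 centred on length) over 17 genes. Apoe (162 and 535 FPKM), which macrophages also make, and Angptl4 (1.47) were higher and Ebf1 (-1.78), a transcription factor of fat precursors, was lower. Pericyte and mural markers summed to 173 FPKM in quiescent cells and 159 at day 5, Schwann and neural markers to 415 and 269.6, and satellite cell and myoblast markers to 73.3 and 95.1. Of 11 pericyte and mural genes, Kcnj8 (-1.51) and Abcc9 (-1.08), subunits of one potassium channel, were lower and none was higher. Of these 11, 8 had a difference below 0 and 3 above, with a median of -0.45. Ndufa4l2, a large part of the sum, went from 43.2 FPKM in the quiescent library to 74.7 at day 5. Abcc9 reached the expression minimum only in the quiescent library. The myelin gene Mbp (37.1 and 12.1 FPKM) was lower, and the neurotrophin receptor Ngfr (1.74 and 7.05) was higher.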
